A study of Mus musculus with 10 samples.

Results

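The genes described here are 35 DNA replication and S phase genes, chosen by gene symbol from a named set of helicase subunits, origin factors, polymerases, nucleotide enzymes and S phase regulators. This set and the other gene lists below were chosen with earlier results of these data known. All 35 genes were found, each in a single row, among the 29657 genes of the deposited table. The values are FPKM (fragments mapped to a gene, scaled to transcript length and library size) from bulk poly(A) RNA-seq of whole mouse liver, with 10 libraries. The 5 libraries of the labelled knockdown group came from C57BL/6 mice that were given AAV8-TBG-galectin-3 by vein, with the genotype label of a hepatocyte-specific galectin-3 knockdown. The 5 control libraries came from C57BL/6 mice labelled WT that were given AAV8-NC, an adeno-associated virus that serves as the negative control. Both groups were fed CDAHFD for 8 weeks, an amino acid-defined diet rich in fat and without choline that is used to produce steatohepatitis with fibrosis, so the controls share the diet and a virus injection. TBG is a promoter active in hepatocytes, the labels do not describe what the vector expresses, and the ages and sexes of the mice are not given in the labels.

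To copy its genome, a cell first loads rings of the MCM proteins onto DNA at origins, where the origin recognition complex, Cdc6 and Cdt1 act as loaders. On entry into S phase the rings are turned into active helicases by Cdc45, Mcm10 and the GINS complex, primase and the polymerases follow, and the PCNA clamp holds the polymerases on the template. Transcription of many of these genes is driven by E2F factors as cells leave G1, and in adult liver, where few hepatocytes cycle under normal conditions, their RNA is usually low. In bulk tissue, fewer cells in S phase and less RNA per cell cannot be told apart.

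Lgals3, the gene named in the labels, stood at 74.2 ± 20.1 FPKM in the labelled knockdown libraries and at 70.8 ± 22.9 FPKM in controls (SD, n = 5 each; log2 fold change 0.08, 95% interval -0.47 to 0.62, limma adjusted p = 0.856). The small difference turned to -0.01 without labelled knockdown library 2 and to -0.09 without control library 5. The targeted transcript thus does not show, in whole liver, the knockdown that the label states, and every direction below rests on the labels. RNA of whole liver also comes from other cells, so a loss in hepatocytes alone cannot be judged from it. Low FPKM steps corresponded to 15.4 to 19.3 M fragments per library (M stands for 1e6), an uncertain depth, and 21653 to 23079 genes were above 0 in each library. Hepatocyte markers identified the tissue, with summed levels of 33506 to 42165 FPKM in labelled knockdown libraries and 37739 to 42449 FPKM in controls.

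Levels of the replication genes were low. Pcna was the most abundant in both groups and Orc1 the least, and 8 of the 35 genes had means under 1 FPKM in both groups, while 11 had means of at least 2 FPKM in both. Only Orc1 was at 0 in any library. Tests used limma on log2(FPKM + 1), for genes with at least 0.5 FPKM in at least 5 libraries, with Benjamini-Hochberg adjustment over all 13471 genes kept and a call at 0.05. In all, 31 of the 35 genes were tested and 4 (Cdc6, Cdc45, Orc1 and Pole) were too low. Fold changes are labelled knockdown minus control in units of log2(FPKM + 1), which understates the change of low genes, so the ratio of mean FPKM is given beside them.

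Of the 31 tested genes, 7 were lower in the labelled knockdown group and 0 were higher. These were the helicase subunits Mcm4, Mcm5 and Mcm6, the ribonucleotide reductase subunit Rrm2, the polymerase subunit Pola1, the ligase Lig1 and the transcription factor E2f1. That is 22.6% of the tested replication genes, where 9.65% of all tested genes were lower and 7.13% were higher. The fitted change was below 0 for 29 of the 31, against 55.6% of all tested genes, the exceptions being Gins1 and Rfc3. Under median-of-ratios scaling or quantile normalization Pold1 and Fen1 were also above 0. With a trend in transcript length removed, as described below, Pold1, Fen1, Mcm7 and Ccne2 were above 0 as well. The median log2 fold change was -0.221 for the replication genes and -0.0354 for all tested genes. Pola1 passed the minimum in every control library and in no labelled knockdown library, so among tested genes it had to differ. Without it 6 of 30 replication genes (20%) were lower and their median was -0.213. When genes were kept instead by a mean of at least 0.1 FPKM over all 10 libraries, which favours neither group, 6 of 34 replication genes were lower (17.6%) with Lig1 lost (limma adjusted p = 0.0557), against 6.36% of all genes so kept. Counting also the untested genes, 32 of 35 had a lower mean FPKM in the labelled knockdown group. In 19 of 35 all 5 labelled knockdown libraries lay below the control mean. Neither count has a share over all genes beside it, so both only describe these genes.

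**Figure D1:**
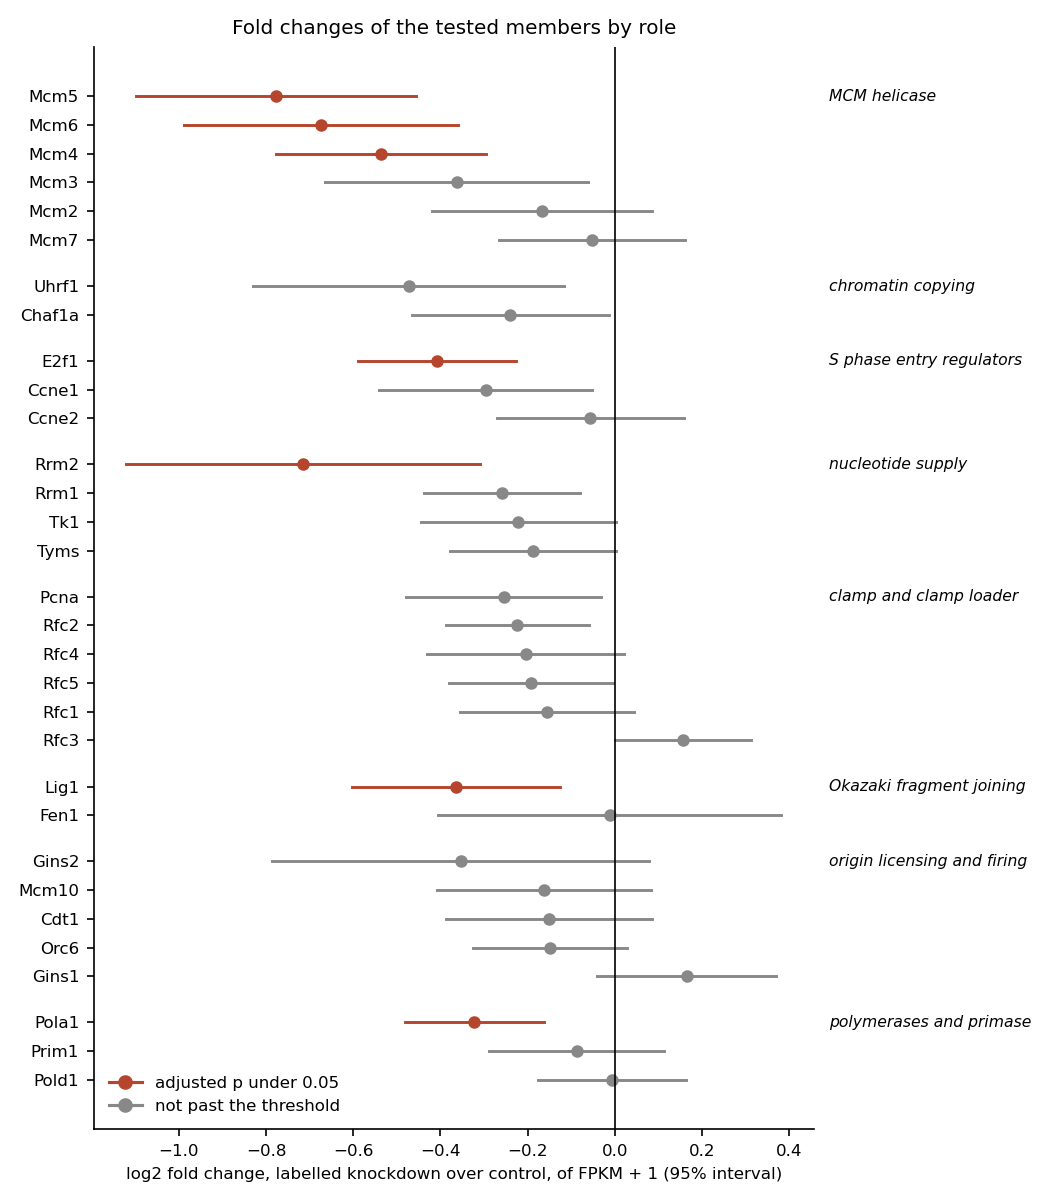
Log2 fold change (labelled knockdown minus control, log2 of FPKM + 1) of the 31 tested replication genes by role, with 95% intervals from limma; red points are the 7 genes past an adjusted p of 0.05. All 7 lie left of 0, and only Gins1 and Rfc3 lie right of it. Pold1 and Fen1 join them under other scalings, and Pold1, Fen1, Mcm7 and Ccne2 with the length trend removed.

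Among the 6 subunits of the MCM2-7 helicase, which forms the ring that unwinds DNA, Mcm4, Mcm5 and Mcm6 fell and Mcm2, Mcm3 and Mcm7 did not pass the test. Mcm5 (ENSMUSG00000005410) had 1.29, 0.570, 0.598, 1.29 and 1.07 FPKM in labelled knockdown libraries 1 to 5, against 1.59, 2.78, 2.47, 2.88 and 2.07 FPKM in control libraries 1 to 5. Its groups did not overlap, and labelled knockdown libraries 2 and 3 were the lowest. The ratio of mean FPKM was 0.410, and the log2 fold change of -0.78 (SE 0.15, 95% interval -1.10 to -0.46, limma adjusted p = 0.0102) was the farthest from 0 of the tested replication genes.

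Mcm4 (ENSMUSG00000022673) had 1.12, 0.638, 0.828, 1.12 and 0.680 FPKM in labelled knockdown libraries, against 1.60, 2.23, 1.35, 1.92 and 1.52 FPKM in controls. Every labelled knockdown library was below every control, with a ratio of mean FPKM of 0.508 and a log2 fold change of -0.54 (SE 0.11, limma adjusted p = 0.0133). Mcm6 (ENSMUSG00000026355) had 2.61, 2.15, 1.93, 2.86 and 1.43 FPKM in labelled knockdown libraries, against 2.96, 4.46, 3.997, 5.20 and 3.78 FPKM in controls. Labelled knockdown library 4 at 2.86 FPKM and control library 1 at 2.96 FPKM came close to each other without overlap. The ratio of mean FPKM of Mcm6 was 0.538 and its log2 fold change -0.67 (SE 0.14, limma adjusted p = 0.0149).

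Mcm7 (ENSMUSG00000029730), the most abundant of the ring subunits, held a similar range in both groups. It had 5.01, 4.12, 4.44, 4.92 and 4.68 FPKM in labelled knockdown libraries, against 4.37, 5.94, 3.94, 5.40 and 4.73 FPKM in controls. The log2 fold change was -0.05 with a 95% interval of -0.27 to 0.16 (limma adjusted p = 0.739), an interval that lies wholly above the point estimates of Mcm4, Mcm5 and Mcm6. Mcm7 shares its position with the microRNA genes Mir106b, Mir93 and Mir25 on the same strand and with Ap4m1 and Cops6 on the opposite strand, and the sources used here do not say whether the quantification used strand. Mcm3 averaged 1.62 ± 0.419 FPKM in labelled knockdown libraries and 2.37 ± 0.554 FPKM in controls (SD, n = 5 each; limma adjusted p = 0.0903). Mcm2 averaged 1.23 ± 0.366 FPKM in labelled knockdown libraries and 1.49 ± 0.247 FPKM in controls (limma adjusted p = 0.333).

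**Figure D2:**
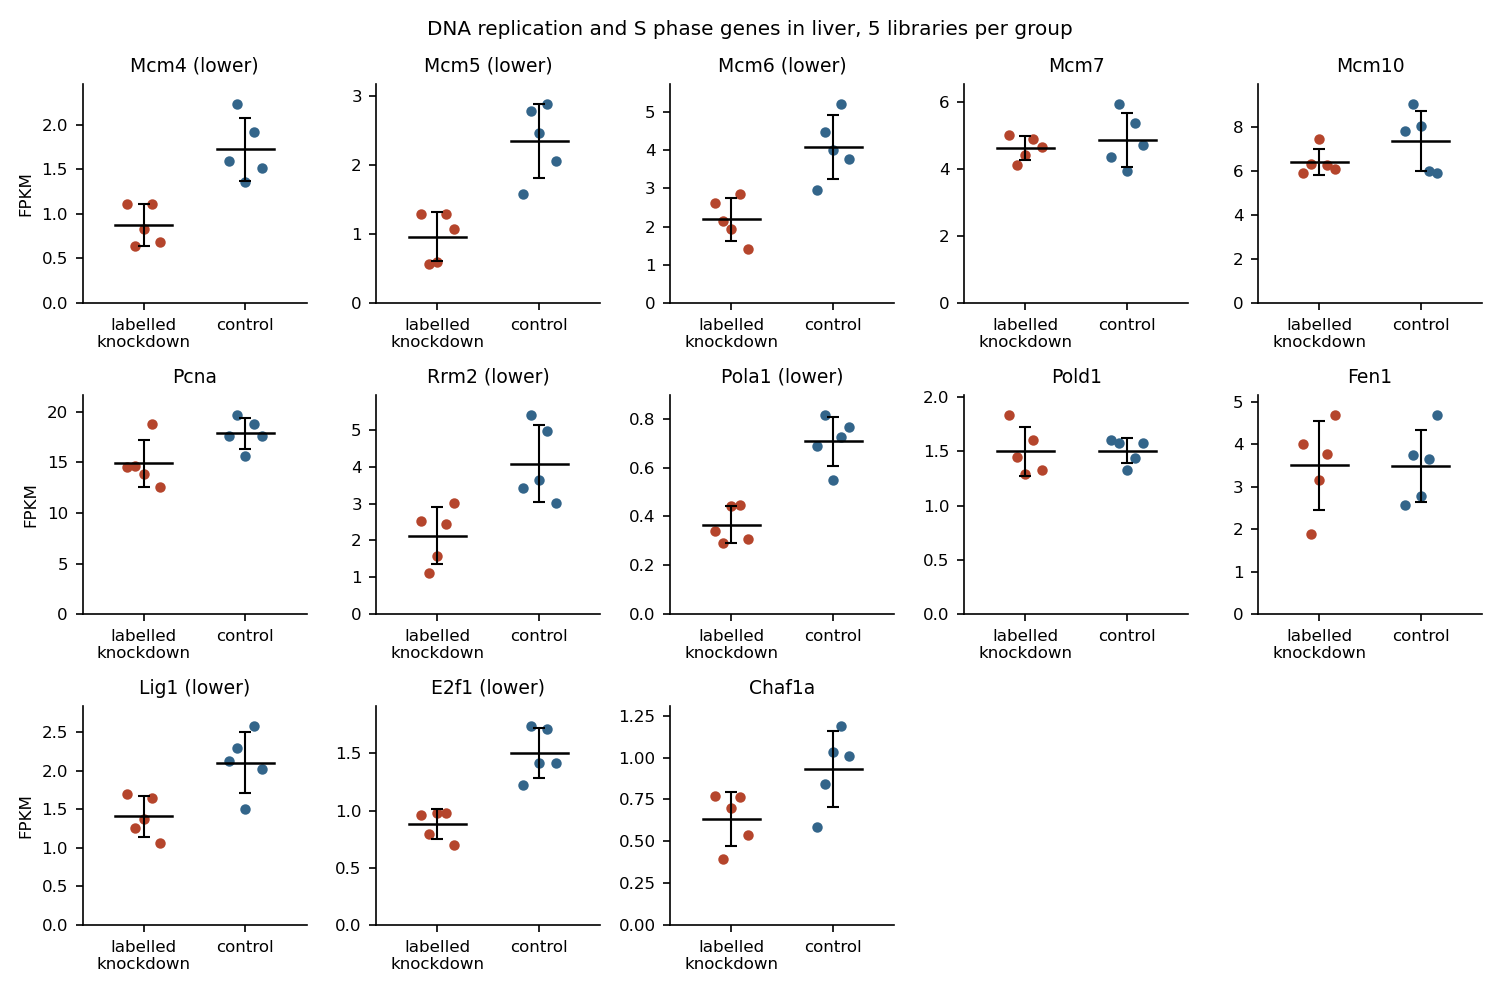
FPKM of each library for the 7 called replication genes and for the most abundant gene of each role. Labelled knockdown is on the left and control on the right, with group means and SD (n = 5 each). The groups of Mcm4, Mcm5, Mcm6, Rrm2, Pola1 and E2f1 are separate, those of Lig1 share a range, and those of Mcm7, Mcm10, Pcna, Pold1, Fen1 and Chaf1a overlap.

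The subunits of the ring were also set against each other within each library, which takes out any factor common to a library. All 15 pairs were compared on the log2 ratio of FPKM by exact permutation of the group labels (two-sided, 252 assignments, smallest possible p 0.00794); this set of tests was chosen after the values had been seen. The ratio of Mcm5 to Mcm7 was 0.135 to 0.263 in labelled knockdown libraries and 0.363 to 0.627 in controls, a log2 difference of -1.28 (exact p = 0.00794, adjusted over the 15 pairs 0.0198). The ratio of Mcm4 to Mcm7 was 0.145 to 0.227 in labelled knockdown libraries and 0.320 to 0.375 in controls, a log2 difference of -0.93. The ratio of Mcm6 to Mcm7 was 0.305 to 0.582 in labelled knockdown libraries and 0.677 to 1.02 in controls, a log2 difference of -0.85. The same exact p was found for these pairs and for Mcm3 to Mcm7 (log2 difference -0.50), where the groups also did not overlap. For Mcm2 to Mcm7 the log2 difference was -0.24 (exact p = 0.262, adjusted 0.302). Relative to Mcm2, Mcm5 was lower as well, with a log2 difference of the Mcm2 to Mcm5 ratio of 1.04 (exact p = 0.00794). For Mcm4 to Mcm6 the difference was -0.08 (exact p = 0.643). In all, 8 of the 15 pairs had an adjusted p under 0.05 and 6 had groups that did not overlap. These ratios describe the same libraries and values as the fits above and are not independent of them.

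**Figure D3:**
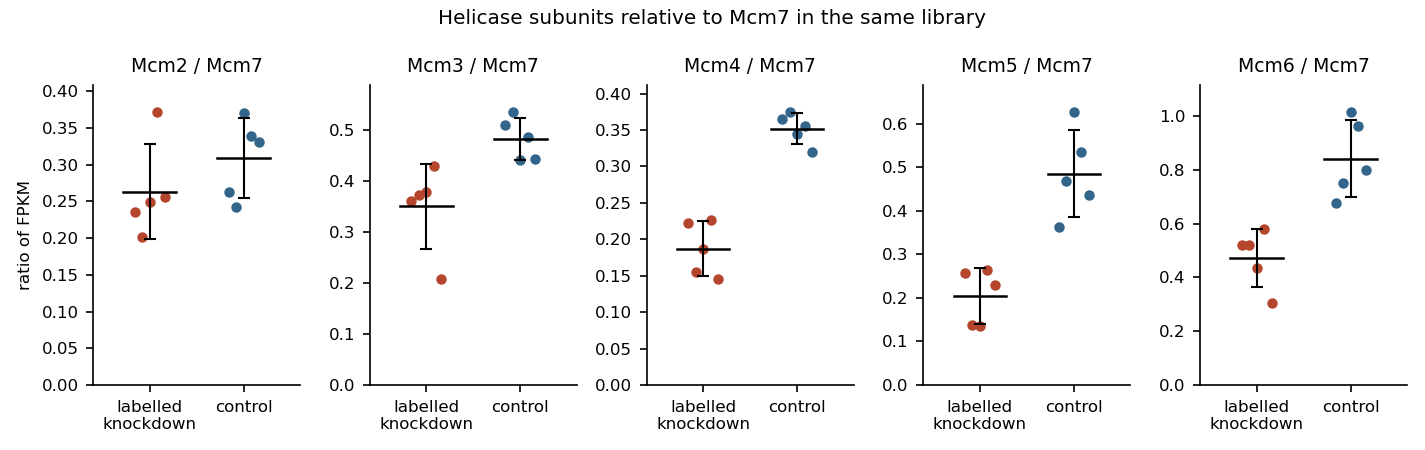
Ratio of the FPKM of Mcm2, Mcm3, Mcm4, Mcm5 and Mcm6 to that of Mcm7 in the same library, labelled knockdown on the left and control on the right, with group means and SD (n = 5 each). The groups are separate for Mcm3, Mcm4, Mcm5 and Mcm6 and overlap for Mcm2.

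Promoter sequences were looked at because several of these genes fell together and many are known E2F targets. RefSeq promoters (GRCm38.p6) were matched by symbol for 29 of the 35 genes; Mcm4, Gins1, Gins2, Rfc2, Pole and Ccne2 had no entry. The 250 bases before each start were searched on both strands for the E2F words TTTCCCGC, TTTGGCGC, TTTCGCGC and TTTGCCGC, which can overlap each other on opposite strands. A word was found for 8 of 29 replication genes (27.6%), namely Mcm5, Mcm6, Mcm7, Pola1, Orc1, Cdc6, Rfc3 and Uhrf1, against 2.16% of all 27025 genes in the table and 1 of 32 mitosis genes (3.12%). Among the matched genes, 3 of 6 called lower held a word, as did 5 of the 23 others. CCAAT, the word bound by NF-Y, was in 62.1% of the replication genes, 75% of the mitosis genes and 37.5% of all genes. TTTGAA, a word of the cell cycle homology region that marks many mitosis genes, was in 10.3% of the replication genes, 31.2% of the mitosis genes and 18.3% of all genes. A match describes letters and is not evidence of binding.

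The windows below are the 170 bases before the start, 5′ to 3′ on the gene's strand, with E2F words in capitals. They show that a gene whose level fell and a gene whose level did not pass the test can both hold such a word, and that Rrm2, which fell, holds none of these words in its window. They lie at chr8:75109339-75109508 (plus strand) for Mcm5, chr1:128359706-128359875 (minus) for Mcm6, chrX:93632156-93632325 (minus) for Pola1, chr5:138171884-138172053 (minus) for the Mcm7 start that holds a word, and chr12:24708084-24708253 (plus) for Rrm2. In Mcm5 and in the first site of Mcm6, 2 words overlap on opposite strands.
Mcm5: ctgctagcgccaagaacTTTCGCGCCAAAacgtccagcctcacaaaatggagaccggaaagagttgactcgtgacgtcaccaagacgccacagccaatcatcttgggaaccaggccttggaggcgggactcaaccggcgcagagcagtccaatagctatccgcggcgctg
Mcm6: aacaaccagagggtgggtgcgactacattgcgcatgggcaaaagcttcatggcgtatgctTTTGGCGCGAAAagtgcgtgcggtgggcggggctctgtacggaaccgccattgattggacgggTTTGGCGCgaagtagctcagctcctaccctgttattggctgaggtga
Pola1: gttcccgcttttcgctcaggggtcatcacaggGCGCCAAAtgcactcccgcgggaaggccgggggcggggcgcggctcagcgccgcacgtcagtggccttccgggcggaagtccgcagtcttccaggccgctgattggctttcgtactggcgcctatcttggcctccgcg
Mcm7: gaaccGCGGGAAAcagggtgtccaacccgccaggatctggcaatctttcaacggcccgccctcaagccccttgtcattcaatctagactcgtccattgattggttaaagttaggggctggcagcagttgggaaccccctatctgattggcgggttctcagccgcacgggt
Rrm2: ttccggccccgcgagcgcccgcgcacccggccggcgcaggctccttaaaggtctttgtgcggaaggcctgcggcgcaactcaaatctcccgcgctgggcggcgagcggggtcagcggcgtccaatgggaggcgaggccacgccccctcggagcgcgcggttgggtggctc

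Of the 8 origin licensing and firing genes, 5 were tested and 0 passed. Mcm10 (ENSMUSG00000026669), which joins the helicase as origins fire, was the most abundant, with 5.89, 6.33, 7.44, 6.27 and 6.10 FPKM in labelled knockdown libraries, against 7.82, 9.02, 8.02, 6.00 and 5.90 FPKM in controls. Control libraries 4 and 5 lay within the labelled knockdown range, and the log2 fold change was -0.16 (95% interval -0.41 to 0.08, limma adjusted p = 0.337). Cdt1, the loader of the MCM ring, had a log2 fold change of -0.15 and Orc6, a subunit of the origin recognition complex, one of -0.15 (limma adjusted p = 0.352 and 0.219). The GINS subunits pointed in opposite directions. Gins1 averaged 2.57 ± 0.259 FPKM in labelled knockdown libraries and 2.19 ± 0.387 FPKM in controls (log2 fold change 0.17, 95% interval -0.04 to 0.37), and Gins2 averaged 1.17 ± 0.660 FPKM in labelled knockdown libraries and 1.71 ± 0.473 FPKM in controls (-0.35, 95% interval -0.79 to 0.08; SD, n = 5 each). Gins2 spread widely, at 0.405 to 2.13 FPKM in the labelled knockdown group. Cdt1 overlaps Gm20388 on the same strand and Gins2 overlaps it on the opposite strand. Several other replication genes, among them Rfc2, Chaf1a and Fen1, also overlap other genes.

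The untested origin factors are described by their values; Cdc6 and Orc1 were near 0 FPKM, and Cdc45 reached the minimum in 4 libraries, all of them controls. Cdc45, part of the active helicase with MCM and GINS, had 0.391, 0.350, 0.356, 0.499 and 0.225 FPKM in labelled knockdown libraries, against 0.599, 0.748, 0.381, 0.920 and 0.646 FPKM in controls, where control library 3 lay inside the labelled knockdown range. In the authors' deposited table Cdc45 had a q-value of 0.0338; in a limma fit without a minimum level, which called 2.3% of all genes lower, its adjusted p was 0.124. Cdc6, an ATPase that helps to load the MCM ring, was at 0.0485 to 0.165 FPKM in labelled knockdown libraries and 0.0662 to 0.245 FPKM in controls (adjusted p = 0.153 without a minimum level). Orc1, the largest subunit of the origin recognition complex, was at 0 to 0.0695 FPKM in labelled knockdown libraries and at 0.0394 to 0.0932 FPKM in controls. In Cdc6, 4 of the 5 controls lay above every labelled knockdown library and control library 1 lay among them; whether depth limits the test at these levels was not tested.

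The clamp and its loader had 6 tested genes, of which 0 passed. Pcna (ENSMUSG00000027342), the sliding clamp, had 14.6, 14.7, 13.8, 18.8 and 12.6 FPKM in labelled knockdown libraries, against 17.7, 19.7, 15.6, 18.8 and 17.6 FPKM in controls. Labelled knockdown library 4 stood among the controls and the other 4 stood below every control. The log2 fold change of Pcna was -0.25 (95% interval -0.48 to -0.03, limma adjusted p = 0.105), and without labelled knockdown library 4 the adjusted p was 0.0208. Among the subunits of the clamp loader, Rfc2 had 3.86 to 4.49 FPKM in labelled knockdown libraries and 4.55 to 5.79 FPKM in controls without overlap, yet missed the threshold (log2 fold change -0.22, limma adjusted p = 0.0605). Groups without overlap, labelled knockdown below, were found for 7 replication genes, against 7.48% of all tested genes. One of them is Pola1, which reached the minimum in the 5 control libraries alone, so its groups separate at that level. Without it 6 of 30 remain. The reverse was found for 0 replication genes and 5.66% of all tested genes. Rfc3 averaged 2.43 ± 0.242 FPKM in labelled knockdown libraries and 2.07 ± 0.125 FPKM in controls (log2 fold change 0.16, limma adjusted p = 0.146). Rfc1, Rfc4 and Rfc5 had log2 fold changes of -0.15, -0.20 and -0.19 with adjusted p of 0.258, 0.189 and 0.140 in the same limma fit.

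Of the polymerase and primase genes, Pola1 fell and Pold1 and Prim1 did not pass the test. Pola1 (ENSMUSG00000006678), the catalytic subunit of the polymerase that starts each new strand, had 0.342, 0.290, 0.445, 0.447 and 0.308 FPKM in labelled knockdown libraries, against 0.688, 0.815, 0.548, 0.725 and 0.766 FPKM in controls. The groups did not overlap, and the ratio of mean FPKM was 0.517 (log2 fold change -0.32, SE 0.07, limma adjusted p = 0.0175). Pold1, the catalytic subunit of polymerase delta, which copies the lagging strand, had 1.83, 1.45, 1.29, 1.61 and 1.33 FPKM in labelled knockdown libraries, against 1.60, 1.57, 1.33, 1.44 and 1.58 FPKM in controls. These values overlapped throughout, with a log2 fold change of -0.01 (95% interval -0.18 to 0.16, limma adjusted p = 0.963). Prim1, the primase subunit that makes the RNA primer, had a log2 fold change of -0.09 (limma adjusted p = 0.535). Pole, the leading-strand polymerase, was below the minimum, at 0.158 to 0.333 FPKM in labelled knockdown libraries and 0.247 to 0.402 FPKM in controls.

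Of the pair of genes that finish lagging-strand fragments, Lig1 fell and Fen1 did not pass the test; the difference between them was not tested. Lig1 (ENSMUSG00000056394), the ligase that seals them, had 1.70, 1.26, 1.37, 1.65 and 1.06 FPKM in labelled knockdown libraries, against 2.13, 2.29, 1.51, 2.58 and 2.02 FPKM in controls. Control library 3 lay inside the labelled knockdown range and the other controls above it; the log2 fold change was -0.36 (SE 0.11, limma adjusted p = 0.0424) and the ratio of mean FPKM 0.669. This is the least firm of the 7 calls: the adjusted p was between 0.0338 and 0.0964 over the fits that left out a single library and was past the threshold in 3 of those 10, with the call lost without labelled knockdown library 2, 3 or 5 or control library 1, 2, 4 or 5. Lig1 also overlaps Zswim9 on the opposite strand. Fen1, the nuclease that trims the flaps, had 4.01, 1.89, 3.15, 3.77 and 4.68 FPKM in labelled knockdown libraries, against 2.58, 3.74, 2.79, 3.65 and 4.68 FPKM in controls. Its log2 fold change was -0.01 (95% interval -0.41 to 0.38, limma adjusted p = 0.970), and its spread within each group was wide.

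Of the 4 nucleotide supply genes, Rrm2 fell. Rrm2 (ENSMUSG00000020649), the small subunit of ribonucleotide reductase and the one made mainly in S phase, had 2.53, 1.11, 1.58, 2.44 and 3.01 FPKM in labelled knockdown libraries, against 3.41, 5.40, 3.66, 4.97 and 3.02 FPKM in controls. The groups were separated only by the narrow gap between labelled knockdown library 5 and control library 5. The ratio of mean FPKM was 0.521 and the log2 fold change -0.71 (SE 0.19, limma adjusted p = 0.0268); without labelled knockdown library 3 or control library 2, 3 or 4 the adjusted p missed the threshold, at most 0.0642. Rrm1, the large subunit, averaged 1.11 ± 0.161 FPKM in labelled knockdown libraries and 1.52 ± 0.189 FPKM in controls (SD, n = 5 each; log2 fold change -0.26, limma adjusted p = 0.0510), and without labelled knockdown library 4 or control library 1 it was past the threshold. Tyms, which makes thymidylate, and Tk1, which salvages thymidine, had log2 fold changes of -0.19 and -0.22 (limma adjusted p = 0.154 for both).

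Among the regulators of S phase entry, E2f1 fell and the E cyclins did not pass the test. E2f1 (ENSMUSG00000027490), a transcription factor that activates replication genes, had 0.960, 0.799, 0.981, 0.983 and 0.698 FPKM in labelled knockdown libraries, against 1.22, 1.74, 1.41, 1.72 and 1.42 FPKM in controls. All labelled knockdown libraries were under 1 FPKM and all controls above it, with a ratio of mean FPKM of 0.589 and a log2 fold change of -0.41 (SE 0.08, limma adjusted p = 0.0130). Ccne1, a cyclin that activates Cdk2 at the start of S phase, averaged 0.529 ± 0.234 FPKM in labelled knockdown libraries and 0.866 ± 0.172 FPKM in controls (limma adjusted p = 0.0879). Its paralog Ccne2 averaged 0.579 ± 0.151 FPKM in labelled knockdown libraries and 0.644 ± 0.195 FPKM in controls (limma adjusted p = 0.725).

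Neither gene that copies chromatin with the DNA passed the test. Chaf1a, the large subunit of the chaperone that places histones behind the fork, had 0.770, 0.396, 0.697, 0.762 and 0.538 FPKM in labelled knockdown libraries, against 0.587, 0.842, 1.03, 1.19 and 1.01 FPKM in controls. Control library 1 lay inside the labelled knockdown range (log2 fold change -0.24, limma adjusted p = 0.128). Uhrf1, which guides maintenance DNA methylation, had 0.733, 0.162, 0.348, 0.829 and 0.229 FPKM in labelled knockdown libraries, against 0.721, 1.32, 0.886, 1.58 and 0.619 FPKM in controls. Its ratio of mean FPKM was 0.449, but the groups overlapped and the log2 fold change of -0.47 (SE 0.16) missed the threshold (limma adjusted p = 0.0674).

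The authors' own comparison can be set beside these calls. In the authors' deposited table, 10 of the 35 genes had a q-value under 0.05, against 8.84% of all genes in it: the 7 genes called here and Rrm1, Cdc45 and Uhrf1. The authors' deposited table marks 2 of them as significant, Mcm5 and Uhrf1, because its mark also asks for a 2-fold change; 0.803% of all its genes carry the mark as down and 0.54% as up, and 0 of the 35 carry it as up. The sources used here do not name the test behind those q-values. The 8.84%, 0.803% and 0.54% are shares of all 29657 genes, of which 21653 to 23079 were above 0 in each library. The 8.84% counts both directions, and a share over expressed genes alone was not computed.

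The calls differed in how firmly they held. Mcm4, Mcm5, Mcm6 and E2f1 were past the threshold in all 12 other settings and in all 10 fits that left out a library. Leaving out a single library gave between 4 and 11 replication genes lower, with 4 without control library 2 or 4 and 11 without labelled knockdown library 4, when Pcna, Rrm1, Ccne1 and Uhrf1 were added. The 7 genes stayed below 0 in every alternative in which they were tested. Long transcripts read lower in the labelled knockdown libraries: the slope of the departure from the gene mean was -0.0586 to -0.00697 log2 units per doubling of transcript length in labelled knockdown libraries and 0.0189 to 0.0463 in controls, without overlap. After this trend was removed in each library, Mcm4, Mcm5, Mcm6, Rrm2 and E2f1 were past the threshold (log2 fold changes -0.45, -0.69, -0.57, -0.70 and -0.35; limma adjusted p 0.0176, 0.0166, 0.0226, 0.0310 and 0.0181). Pola1 and Lig1 then missed it (-0.21 and -0.29; adjusted p = 0.0575 and 0.0740), and Rfc3 was higher (0.21, adjusted p = 0.0453).

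Libraries within a group ranked in similar ways for many of these genes. Labelled knockdown library 4 was the highest of its group for 21 of the 35 genes and the lowest for 0, while control library 4 was the highest control for 13 genes and control library 2 for 11. The mean of log2(FPKM + 1) over the 35 genes was 1.36, 1.22, 1.27, 1.44 and 1.24 in labelled knockdown libraries 1 to 5, against 1.44, 1.63, 1.48, 1.65 and 1.51 in control libraries 1 to 5. The highest labelled knockdown library, at 1.439, and the lowest control, at 1.444, were nearly level. Summed levels of the 35 genes were 65.0 to 81.3 FPKM in labelled knockdown libraries and 81.5 to 98.9 FPKM in controls.

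**Figure D4:**
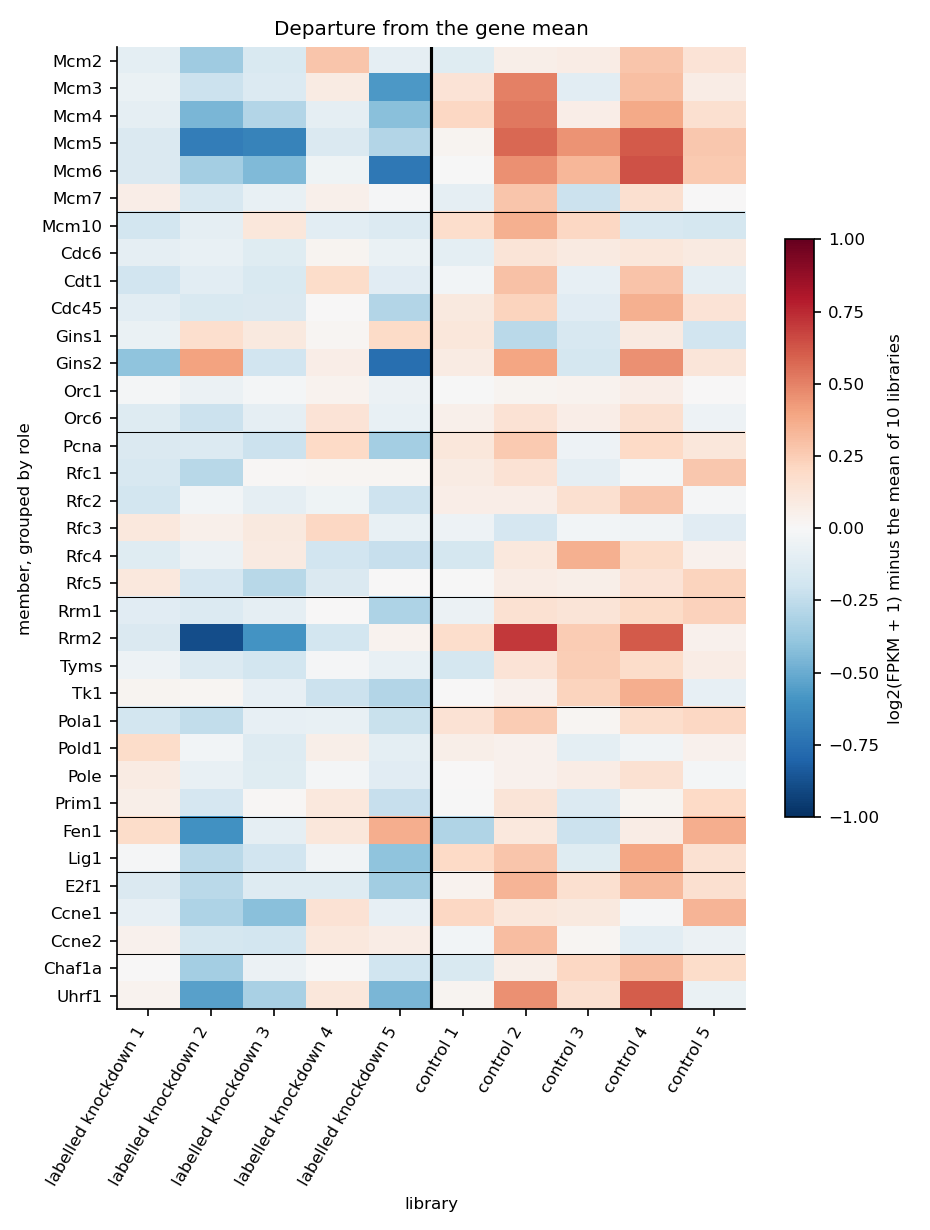
Heat map of the 35 replication genes (rows, by role) in the 10 libraries (columns, labelled knockdown left, control right), as log2(FPKM + 1) minus the mean of the gene over all libraries. Labelled knockdown library 4 is the highest of its group for 21 of the 35 genes.

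The replication genes were set beside genes of mitosis, the phase that follows. Of 38 mitosis and spindle genes, 25 were tested, 21 were lower (84%) and 0 higher, and their median log2 fold change was -1.01. Of all tested genes, 9.65% were lower and 7.13% higher. Many of the mitosis genes reached the minimum mainly in controls. With the filter on the mean over all libraries, 32 of 38 were lower (84.2%), against 6.36% of all genes so kept. Top2a, which untangles chromosomes, averaged 0.305 ± 0.119 FPKM in labelled knockdown libraries and 1.24 ± 0.393 FPKM in controls (SD, n = 5 each; log2 fold change -0.76, limma adjusted p = 0.00941), but like Pola1 it reached the minimum in every control and in no labelled knockdown library, so among tested genes it had to differ. Nusap1, Kif20a and Knstrn, which act on the spindle, had log2 fold changes of -0.80, -1.23 and -1.01 (limma adjusted p = 0.0114, 0.0116 and 0.0141). The mean of log2(FPKM + 1) over the mitosis genes was 0.661, 0.418, 0.453, 0.841 and 0.502 in labelled knockdown libraries, against 0.636, 1.39, 1.74, 1.68 and 1.44 in controls. Control library 1 was thus inside the labelled knockdown range for the mitosis genes, and control library 3 was the highest for them but the second lowest control for the replication genes. The difference between these sets was not tested.

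**Figure D5:**
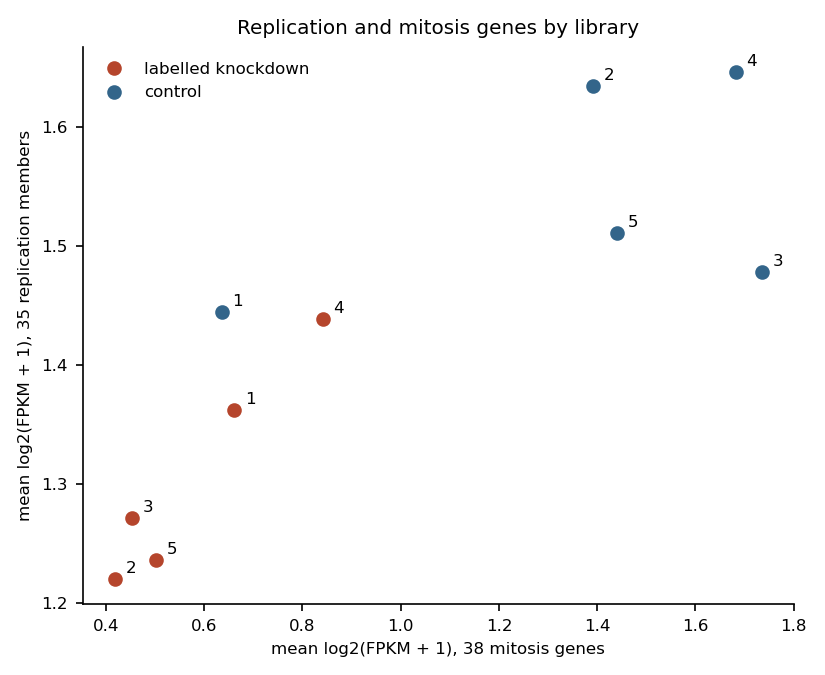
Mean log2(FPKM + 1) of the 38 mitosis genes against that of the 35 replication genes, with a point for each library. Control library 1 lies at 0.636 for the mitosis genes, inside the range of 0.418 to 0.841 of the labelled knockdown libraries, while the replication means run from 1.22 to 1.44 in labelled knockdown libraries and from 1.44 to 1.65 in controls.

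Other replication factors were looked at from a list of 56 genes, of which 40 were tested, 9 were lower and 0 higher. That is 22.5% lower, against 9.65% of all tested genes, while the median log2 fold change was -0.06, against -0.0354 for all tested genes. With the filter on the mean over all libraries, 9 of 51 were lower (17.6%), against 6.36% of all genes so kept. Dbf4, the activator of the kinase that fires origins, averaged 0.341 ± 0.101 FPKM in labelled knockdown libraries and 0.929 ± 0.281 FPKM in controls. Its log2 fold change was -0.51 (limma adjusted p = 0.0141). It reached the minimum in every control but in only 1 labelled knockdown library, so it was tested mainly through the controls. Rpa1, the large subunit of the protein that coats single-stranded DNA, averaged 3.44 ± 0.588 FPKM in labelled knockdown libraries and 5.34 ± 0.923 FPKM in controls (-0.51, adjusted p = 0.0196 in the limma fit). Dck, which salvages deoxycytidine, and Orc2, another subunit of the origin recognition complex, had log2 fold changes of -0.49 and -0.41 (limma adjusted p = 0.0246 and 0.0283). The other 5 genes of the list that were lower were Top1, Chtf8, Topbp1, Mcmbp and Pole3.

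Of 36 further regulators of S phase entry, 29 were tested, 4 were lower (13.8%) and 1 was higher (3.45%), against 9.65% and 7.13% of all tested genes; with the filter on the mean over all libraries 2 of 35 were lower (5.71%). These shares of called genes are near the background, and the genes are given as single results. The fitted change was below 0 for 26 of the 29 and above 0 for 3, against 55.6% of all tested genes below 0. The median log2 fold change of the list was -0.137, against -0.0354 for all tested genes. Ccna2, the cyclin of S phase and G2, averaged 0.820 ± 0.455 FPKM in labelled knockdown libraries and 2.89 ± 1.27 FPKM in controls (SD, n = 5 each; log2 fold change -1.05, limma adjusted p = 0.0224). The repressors E2f6 and Rbl2 had log2 fold changes of -0.29 and -0.30 (limma adjusted p = 0.0292 and 0.0425), and the D cyclin Ccnd2 was the fourth. Lin37, a subunit of the DREAM complex that represses cell cycle genes, was higher, with 7.95 ± 1.42 FPKM in labelled knockdown libraries and 5.68 ± 0.720 FPKM in controls (log2 fold change 0.41, limma adjusted p = 0.0313).

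Single markers of other liver cells were called too, against the background of 9.65% lower, and their part in the results on the replication genes was not tested. Of 12 Kupffer cell markers, 10 were tested and 2 were lower (20%), Adgre1 and Cd5l, with summed levels of 181 to 267 FPKM in labelled knockdown libraries and 232 to 337 FPKM in controls. Adgre1, the F4/80 antigen, averaged 3.01 ± 0.975 FPKM in labelled knockdown libraries and 6.63 ± 0.760 FPKM in controls, without overlap (limma adjusted p = 0.00684). Of 11 stellate cell markers all were tested and 3 were lower (Reln, Lum and Col1a1, 27.3%), with sums of 61.1 to 127 FPKM in labelled knockdown libraries and 116 to 136 FPKM in controls. Of 10 sinusoidal endothelial markers all were tested and 1, Pecam1, was lower (10%, near the background), with sums of 20.4 to 30.2 FPKM in labelled knockdown libraries and 23.0 to 41.7 FPKM in controls. Monocyte-derived macrophage markers (10 of 10 tested) summed to 290 to 785 FPKM in labelled knockdown libraries and 590 to 1099 FPKM in controls, with 0 called. Of the 9 hepatocyte markers tested, Apob, Cps1 and Hnf4a were lower (33.3%) and Ttr was higher (11.1%). Of all tested genes, 9.65% were lower and 7.13% higher. The longest transcripts of Apob, Cps1 and Hnf4a have 13934, 5555 and 4362 bases, and that of Ttr has 1186. The part of transcript length in these calls was not tested. No marker of the neutrophil, T and NK cell, B and plasma cell, erythroid or cholangiocyte lists was called, but many were not tested. Tested were 3 of 10, 5 of 12, 3 of 8, 7 of 10 and 5 of 8 listed markers, in that order. Of these, 1, 3, 3, 5 and 5 had a fitted change below 0. The neutrophil genes Ly6g, Mpo, Elane and Ngp and the erythroid genes Epb42 and Slc4a1 were at 0 in at least 5 libraries.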

How the data were processed

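The members and gene lists were chosen with earlier results of these data known. Libraries were made from oligo(dT)-selected RNA with dUTP strand marking, per the labels' protocols. The submitters' processing notes list cutadapt 1.9, HISAT2 2.0.4 and StringTie 1.3.4d. The build they name, GRCh38, is human, although the table has mouse gene identifiers; the mouse build was not stated. The authors deposited FPKM, scaled to transcript length and library size, per the file headers. The deposited table also held the authors' fold ratio of group means, its log2 value, and their p-value and q-value; their significance mark meant a q-value below 0.05 plus a change of 2-fold or more (0 mismatches).

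Sample titles gave the groups and numbers. The 5 libraries of a group are numbered replicates, taken as separate mice; if they are not, p-values measure only the spread between libraries. Of the sample columns 0 were left unused, and 0 library pairs were identical. Depth is uncertain: 12.7 to 14.8% of low values were multiples of a common step (tolerance 0.02), so whole reads were not recovered and no counting interval is given. Genes with at least 0.5 FPKM in at least 5 libraries (13471) were fitted as log2(FPKM + 1) in limma 3.58.1 (R 4.3.3; trended variance, two-sided, no covariates, Benjamini-Hochberg). No batch that splits the libraries is given in the labels. Simulated data with 13471 genes (3 draws of this comparison) gave back 68.7% of 1.5-fold and 87.7% of 2-fold changes, with 4.44% of calls false. Lengths came from the longest GENCODE M21 transcript (97.9% of tested genes) and overlapping genes from the same annotation; the length trend was a natural spline with 4 degrees of freedom. Values in every library are given for called replication genes and the most abundant of each role, with up to 4 called genes of smallest p from each other list. Cdc45 and Uhrf1 in every library, and the remaining called genes of the lists, are given by a choice made after their values were seen. Alternatives were other pseudocounts (0.5 and 0.1), filters, scalings, weights and moderation, length removal, a replicate block, and leaving out each library. Of 15 histone genes listed, 4 were in the table and 1 was tested and not called. Protein sequences were not used here.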

Additional observations from a re-analysis of the deposited data

Results flagged for a closer look

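Of 78 groups of 5 values checked for a library far from the other 4, 2 held such a library, where chance gives about 1 in 20 groups. Control library 1 held 0.0662 FPKM of Cdc6, below the other controls at 0.212 to 0.245 FPKM, so that the control mean rests on the other 4 libraries; Cdc6 was below the minimum level and was not tested. Labelled knockdown library 4 held 2.54 FPKM of Cdt1, above the other labelled knockdown libraries at 1.72 to 1.89 FPKM and inside the control range of 1.92 to 2.82 FPKM.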

How the results depend on the processing

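The limma fit as reported called 1300 genes lower and 960 higher in the labelled knockdown group, and 7 replication genes lower and 0 higher. The number of genes lower was 682 without a filter, 720 with the length trend removed, 680 with a replicate block and the length trend removed, and 2047 with array weights; the number of genes higher was 511 without a filter. Leaving out a library in turn gave 533 to 1733 genes lower and 440 to 954 higher. Replication genes lower were 4 with the replicate block and the length trend removed, 13 with array weights, and 4 to 11 without a single library; 1 was higher (Rfc3) under quantile normalization and with the length trend removed. The replicate block alone gave 986 genes lower, 769 higher and 5 replication genes lower, losing Rrm2 and Pola1. Same-numbered libraries correlated at -0.0145 to 0.114 after the group means were removed. Such weak values cannot decide whether the numbers pair the mice, and the sample titles do not say. The median log2 fold change of the replication genes was -0.294 to -0.147 over the other settings and -0.252 to -0.183 without a library. Rrm2 was called in 9 of 12 other settings, Pola1 in 8 of 11, and Lig1 in 8 of 12. The sign turned for values near 0: Pold1 and Fen1 were 0.0202 and 0.0227 under median-of-ratios scaling and 0.0318 and 0.0243 under quantile normalization; with the length trend removed, with or without the replicate block, Pold1 was 0.0798, Fen1 0.0194, Mcm7 0.0145 and Ccne2 0.0131. Without a library, Pold1 ran from -0.0523 to 0.0248, Fen1 from -0.105 to 0.139, Mcm7 from -0.113 to 0.0102, Ccne2 from -0.0888 to 0.0134 and Lgals3 from -0.0934 to 0.264. Without any 1 control library Pola1 fell under the minimum level and gave no value. Causes of these changes were not tested. FPKM keep no counts, so the precision of genes under 0.5 FPKM is not known.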

Other observations

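Several genes that hold cells in G1 or carry them out of it, named after their values were seen, did not pass the test. Ccnd1, the main D cyclin of liver, averaged 29.9 ± 12.4 FPKM in labelled knockdown libraries and 43.8 ± 7.94 FPKM in controls (SD, n = 5 each; log2 fold change -0.61, limma adjusted p = 0.109). The inhibitors Cdkn1a and Cdkn1b averaged 14.2 ± 5.68 and 7.01 ± 0.983 FPKM in labelled knockdown libraries, against 15.6 ± 1.93 and 7.05 ± 0.722 FPKM in controls (limma adjusted p = 0.570 and 0.946). Cdk4, a partner of the D cyclins, averaged 17.9 ± 1.79 FPKM in labelled knockdown libraries and 15.0 ± 1.38 FPKM in controls (limma adjusted p = 0.0774). Myc averaged 16.1 ± 7.40 FPKM in labelled knockdown libraries and 18.1 ± 9.40 FPKM in controls (limma adjusted p = 0.765).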
